A study of Mus musculus with 6 samples.

Results

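The Hedgehog pathway was examined through 7 genes, namely the ligand gene Shh, the receptor genes Ptch1 and Smo, the transcription factor genes Gli1, Gli2 and Gli3, and Hhip, which encodes a secreted and membrane-bound inhibitor of the ligand. Every probe set whose annotation gives 1 of these symbols and no other was used, which gave 11 of the 22626 mouse probe sets on the array. Shh, Gli1 and Gli3 had 1 probe set each, and the other 4 genes had 2 each. Lungs of Igf1-/- embryos, which carry a null mutation of Igf1 in every cell, were compared with lungs of Igf1+/+ wild type embryos, 3 arrays per genotype, all taken at embryonic day 18.5 from matings of heterozygous C57BL/6J parents. According to the study, the embryos were delivered by C-section and helped to breathe before the lungs were dissected. The methods of the study describe a separate RNA preparation for each array whereas the sample descriptions speak of pooled lungs, so p values measure the spread between these samples, which may be pools. Levels are given in log2 units after RMA, so that a difference of 1 is a 2-fold change.

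Hedgehog signalling in the lung runs mainly from epithelium to mesenchyme. SHH made by epithelial cells binds PTCH1 on mesenchymal cells, which releases SMO from inhibition and lets the GLI factors act on their targets. GLI2 is the main activator and GLI3 acts largely as a repressor, whereas Gli1, Ptch1 and Hhip are themselves targets, the first amplifying the signal and the others restraining it. The pathway is known in this organ for its part in branching and in the growth of mesenchyme and airway smooth muscle.

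Among the 7 genes, Gli1 had the largest difference between genotypes and was 1.58-fold higher in the Igf1-/- lungs (log2 fold change 0.66, SE 0.16, n = 3 per genotype). In whole lungs, a difference in the number of cells of a type and in the RNA per cell cannot be told apart. The adjusted p of 0.156 for Gli1 in limma lies under the wider level of 0.20 and not under the level of 0.10 at which a gene is said here to rise or fall. The remaining 10 probe sets, including both of Ptch1 and both of Hhip, had a 95% interval of the log2 fold change that holds 0. No probe set of the pathway rose or fell in limma at 0.10, where 1 had an unadjusted p under 0.05. SAM, the method named in the study, gave 0 at an FDR of 0.10 and 1 at 0.20, which was Gli1 (FDR 0.191). Over all mouse probe sets, 0.557% passed 0.10, 2.60% passed 0.20 (0.981% higher in the Igf1-/- lungs) and 12.5% had an unadjusted p under 0.05, beside 0, 1 and 1 of the 11 here. The study lists Gli1 among its differentially expressed genes, a list drawn at a SAM FDR under 0.20. That list comes from these same arrays and is not independent evidence.

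Shh, the ligand that starts the signal, read 6.16, 6.25 and 6.08 on the Igf1-/- arrays at 1427571_at, against 5.90, 6.10 and 6.79 on the Igf1+/+ arrays. The third Igf1+/+ array had the highest value and the first the lowest, so the Igf1-/- values lay within the range of the wild type. The log2 fold change of Shh was -0.10 (SE 0.20, adjusted p = 0.858 in limma), with a 95% interval from -0.55 to 0.34. That interval allows a level from 0.685 to 1.27 times that of the wild type, and on the log2 scale it was the widest of the 11. Without the third Igf1+/+ array the log2 fold change was 0.16 (adjusted p = 0.392), which turns the direction.

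Ptch1, the receptor that binds SHH and a target of the pathway, read 10.73, 10.14 and 10.66 on the Igf1-/- arrays, against 10.63, 10.58 and 10.63 on the Igf1+/+ arrays at its brighter probe set (1428853_at). The wild type arrays lay close together (SD 0.03) and the second Igf1-/- array stood apart on the low side, which gave the Igf1-/- lungs an SD of 0.32. The log2 fold change was -0.10 (SE 0.14, adjusted p = 0.795) and turned to 0.08 without the second Igf1-/- array. The dimmer probe set (1450824_at) read 5.83, 5.87 and 5.54 against 5.66, 5.68 and 6.15, a log2 difference of -0.08 (SE 0.14, adjusted p = 0.844). At that probe set it was the third Igf1+/+ array that was high, and the groups overlapped at both.

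Smo, the transducer that PTCH1 holds in check, read 8.40, 8.39 and 8.65 on the Igf1-/- arrays, against 8.30, 8.22 and 8.32 on the Igf1+/+ arrays at 1427048_at. All Igf1-/- values at that probe set lay above all Igf1+/+ values, and the log2 fold change was 0.20 (SE 0.09, adjusted p = 0.404). At the brighter probe set 1427049_s_at the values were 8.51, 8.50 and 8.69 against 8.52, 8.58 and 8.44, which overlapped, and the log2 fold change was 0.05 (SE 0.08, adjusted p = 0.824). Smo and Gli1 supplied the 2 of 11 probe sets whose groups did not overlap, both higher, beside 18.0% of all mouse probe sets and 10.8% with higher values, so this count is near the background.

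**Figure D1:**
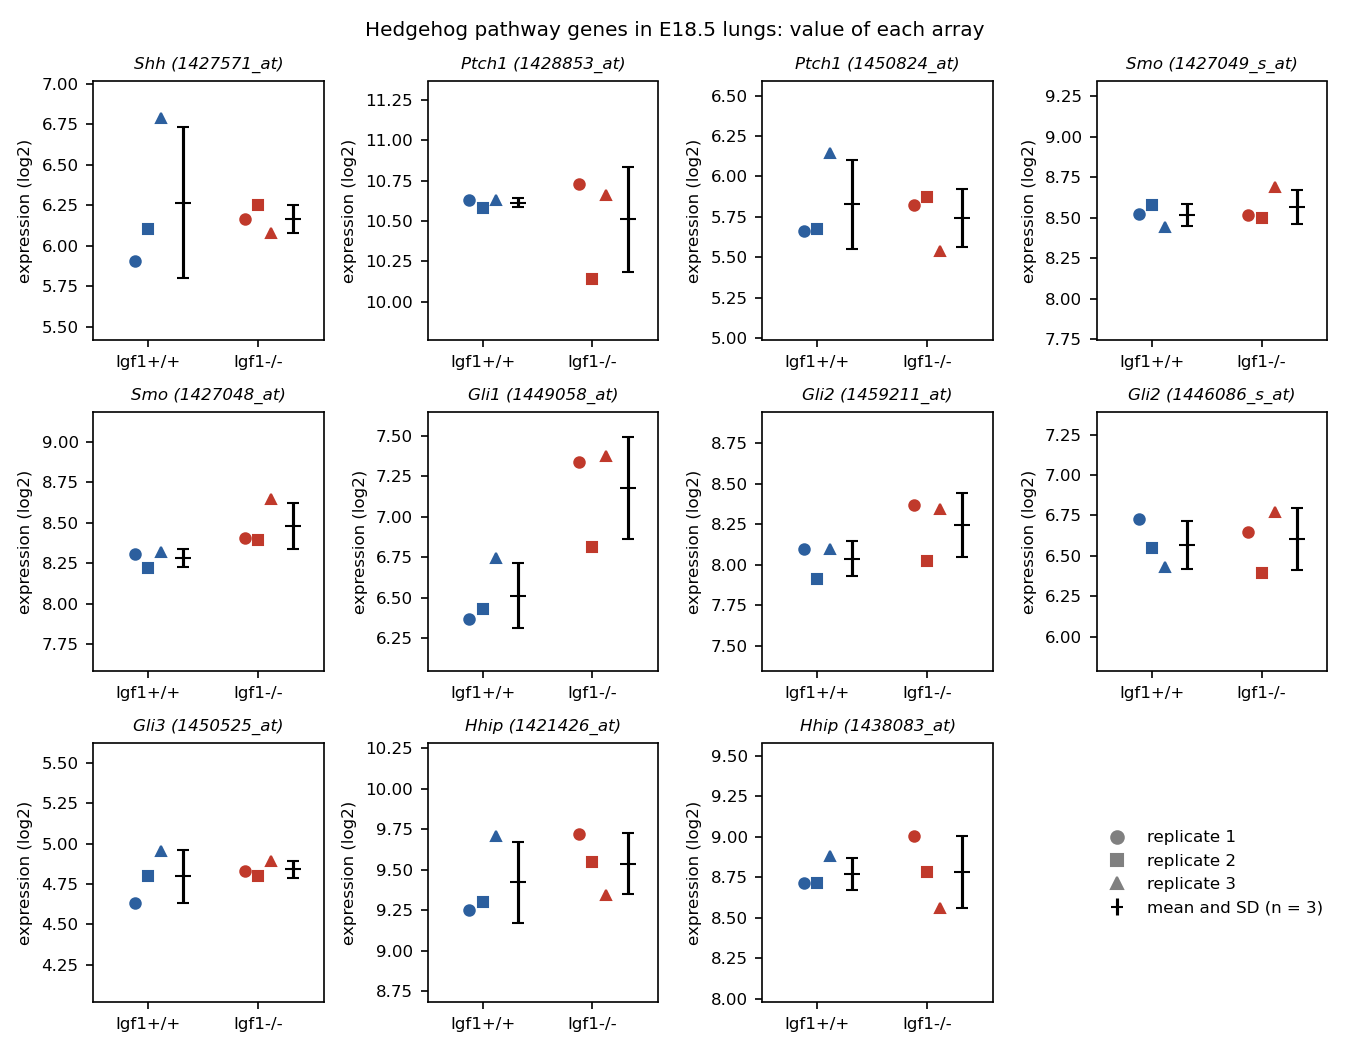
Expression value (log2, y axis) of each array for the 11 probe sets of Shh, Ptch1, Smo, Gli1, Gli2, Gli3 and Hhip, with Igf1+/+ lungs in blue and Igf1-/- lungs in red, a symbol for each replicate number, and the mean with SD in black (n = 3); every panel spans the same range of log2 units. The groups are apart at Gli1 (6.81 to 7.38 against 6.37 to 6.74) and at 1427048_at of Smo, and overlap at the other probe sets.

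Gli1, the transcription factor gene that is switched on by the pathway, read 7.34, 6.81 and 7.38 on the Igf1-/- arrays at 1449058_at, against 6.37, 6.43 and 6.74 on the Igf1+/+ arrays. The lowest Igf1-/- array, the second, was only slightly above the highest Igf1+/+ array, the third. The 95% interval of the log2 fold change ran from 0.30 to 1.03, which is 1.23- to 2.04-fold. The adjusted p was 0.354 and 0.425 without the first and the third Igf1-/- array, and 0.444 and 0.339 without the first and the second Igf1+/+ array. It was 0.0724 without the second Igf1-/- array and 0.0779 without the third Igf1+/+ array, while the log2 fold change stayed between 0.56 and 0.84.

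Gli2, the main activator of the response, read 8.37, 8.02 and 8.34 on the Igf1-/- arrays, against 8.10, 7.91 and 8.10 on the Igf1+/+ arrays at 1459211_at. The second array of each genotype was the lowest, and the groups overlapped through the second Igf1-/- array. The log2 fold change was 0.21 (SE 0.11, adjusted p = 0.466). The dimmer probe set 1446086_s_at, designed on the same sequence record, had 6.65, 6.39 and 6.77 against 6.73, 6.55 and 6.43, a log2 difference of 0.03 (SE 0.12, adjusted p = 0.926). The second Igf1-/- array was the lowest of its genotype at both probe sets of Gli2 and of Smo, at the brighter one of Ptch1, at Gli1 and at Gli3.

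Gli3, which mainly represses the targets, read 4.83, 4.80 and 4.89 on the Igf1-/- arrays at 1450525_at, against 4.63, 4.80 and 4.96 on the Igf1+/+ arrays. This probe set was dim, with a mean above that of only 23.2% of all mouse probe sets, and no detection calls were used, so how much of its value is background is not known here. The log2 fold change was 0.04 (SE 0.09, adjusted p = 0.874).

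Hhip, the inhibitor that binds Hedgehog ligands and a target of the pathway, read 9.72, 9.55 and 9.34 on the Igf1-/- arrays, against 9.25, 9.30 and 9.71 on the Igf1+/+ arrays at its brighter probe set (1421426_at). The groups covered nearly the same range, with the first Igf1-/- array and the third Igf1+/+ array highest. The log2 fold change was 0.12 (SE 0.14, adjusted p = 0.757), with a 95% interval from -0.20 to 0.43. The dimmer probe set (1438083_at) had 9.01, 8.78 and 8.56 against 8.72, 8.72 and 8.88, with the same arrays highest, and differed by 0.01 on the log2 scale (SE 0.12, adjusted p = 0.974). The third Igf1+/+ array was thus the highest of its genotype at Shh, Gli1, Gli3, both probe sets of Hhip and the dimmer ones of Ptch1 and Smo.

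**Figure D2:**
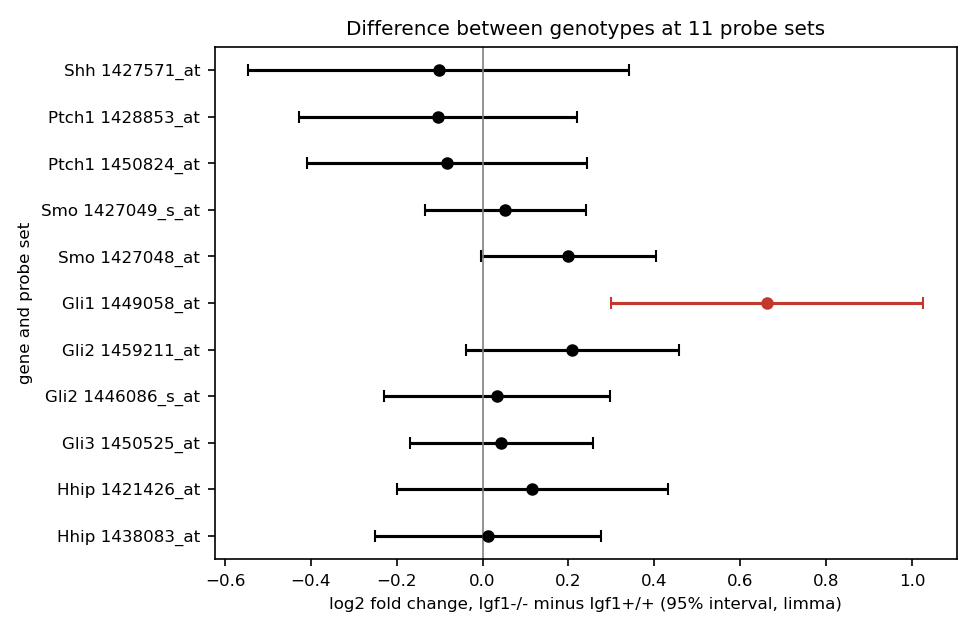
Log2 fold change (x axis, Igf1-/- minus Igf1+/+) with its 95% interval in limma for each of the 11 probe sets (y axis), n = 3 per genotype; the probe set with an adjusted p under 0.20 is red. The interval of Gli1, from 0.30 to 1.03, is the only one of these 11 that leaves out 0.

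Of the 11 probe sets, 8 had a higher mean and 3 a lower mean in the Igf1-/- lungs, and 58.2% of all mouse probe sets had a higher mean. Their median log2 fold change was 0.04, beside 0.03 over all mouse probe sets. The levels of Gli1 were then set against those of the other members within each array, a description for the gene with the largest difference, chosen after the values were seen and with no test. A difference between probe sets has no meaning as a level, and only its change between genotypes was read. Gli1 minus the brighter probe set of Ptch1 was -3.39, -3.33 and -3.29 on the Igf1-/- arrays, against -4.27, -4.15 and -3.89 on the Igf1+/+ arrays. The SD of this difference within the Igf1-/- lungs was 0.05, the second array being low at both genes. The means differed by 0.77 between genotypes, which holds the difference of Gli1 itself. Of the pairs of Gli1 with another member probe set, this one had the largest difference and the smallest SD within the Igf1-/- lungs. The other pairs differed by 0.45 (Gli2 at 1459211_at) to 0.77 (Shh), with Igf1-/- SDs from 0.12 to 0.45.

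The named probe set whose values were most like those of Gli1 across the 6 arrays was 1427351_s_at of Ighm, the heavy chain of IgM. Likeness was measured as the root mean square difference after each probe set was centred on its own mean, and was 0.0975 log2 units for Ighm. Next came Gas5 (0.114), which gives rise to a non-coding RNA, and Camp (0.139), an antimicrobial peptide of neutrophils. Hpca, a calcium sensor of neurons, had 0.161 and Ltf, the neutrophil protein lactoferrin, 0.166. Of the Hedgehog genes, Gli2 at 1459211_at was the closest to Gli1 with 0.263, at rank 226 of 20379 named probe sets, and Shh the farthest with 0.470. With 6 arrays this is a description of the values only.

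Of 36 further genes of the pathway, 23 had a probe set of their own and 13 were not analysed here. Each gene was read at its brightest probe set. Higher means in the Igf1-/- lungs were found for 18 and lower means for 5, and the median log2 fold change was 0.08, beside 0.03 over 12393 genes, 60.6% of which had a higher mean. No gene of this group rose or fell in limma at 0.10, where 3 had an unadjusted p under 0.05, and SAM also gave 0 at 0.10. Over all genes at their brightest probe set, 0.597% passed 0.10, 2.72% passed 0.20 (1.15% upward and 1.57% downward in the Igf1-/- genotype) and 12.7% had an unadjusted p under 0.05. The groups did not overlap at 6 of the 23 genes, beside 18.8% of all genes.

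The gene of this group that passed 0.20 was Scube2, whose secreted product helps to release lipid-modified SHH from the cells that make it. Scube2 read 8.48, 8.50 and 8.20 on the Igf1-/- arrays, against 9.30, 8.85 and 8.99 on the Igf1+/+ arrays. All Igf1-/- arrays lay below all Igf1+/+ arrays, and the level was 1.57-fold lower (log2 fold change -0.65, SE 0.13, adjusted p = 0.106). The adjusted p of Scube2 exceeded 0.20 without the first or the third Igf1-/- array (0.230 and 0.305) and without the first Igf1+/+ array (0.248). The related gene Scube1 had 5.82, 5.89 and 5.89 against 5.64, 5.66 and 5.66, a log2 fold change in the other direction of 0.21 (SE 0.07, adjusted p = 0.267), with groups that did not overlap. Hhat, the acyltransferase that adds the palmitate to SHH, differed by 0.17 (adjusted p = 0.478), and the other ligand genes Ihh and Dhh differed by 0.09 (adjusted p = 0.680) and 0.04 (adjusted p = 0.869).

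Among 6 genes of reception at the cell surface, none passed 0.20. Lrp2, an endocytic receptor that binds SHH, read 4.63, 4.72 and 4.62 on the Igf1-/- arrays, against 4.96, 4.90 and 4.79 on the Igf1+/+ arrays, a difference of -0.23 (SE 0.08, adjusted p = 0.298). At its dimmer probe set it was -0.34 (SE 0.10, adjusted p = 0.242), and the groups did not overlap at either. Both were dim, with means above those of 22.5% and 15.8% of all mouse probe sets, so how much of them is background is not known here either. Gpc3, a glypican that competes with PTCH1 for the ligand, differed by 0.23 (SE 0.10, adjusted p = 0.412). The coreceptor genes Boc, Gas1 and Cdon differed by 0.14, 0.13 and -0.04 log2 units. Gas1 had a higher mean at all 3 of its probe sets, from 0.13 to 0.24 (adjusted p from 0.354 to 0.520), and the groups did not overlap at 2 of them. Evc differed by 0.05 (adjusted p = 0.814) at its brightest probe set. At its dimmer probe set it differed by 0.26 (SE 0.09, adjusted p = 0.303), with groups that did not overlap.

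The 12 genes of intracellular transduction and of the cilium, in which the signal is processed, had log2 fold changes from -0.03 to 0.27 at their brightest probe sets, where 0 of them had an unadjusted p under 0.05. The largest were those of Prkaca, a catalytic subunit of the protein kinase A that marks GLI proteins for processing (0.27, SE 0.14, adjusted p = 0.465), and Ift88, a component of transport in the cilium (0.16, SE 0.10, adjusted p = 0.522). Prkacb, another catalytic subunit of that kinase, had 0.08 at its brightest probe set and -0.32 (SE 0.13, adjusted p = 0.380) at a dimmer one, so its probe sets disagreed in direction. Sufu, which binds and restrains GLI factors, had 0.02 (SE 0.08, adjusted p = 0.928) with a 95% interval from -0.16 to 0.20.

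Of 12 genes described elsewhere as targets of the pathway, 9 had a higher and 3 a lower mean in the Igf1-/- lungs at their brightest probe set, with a median log2 fold change of 0.09. Over all genes 60.6% had a higher mean, and the median was 0.03. In limma 0 passed 0.10 and 1, the cyclin gene Ccnd2, passed 0.20, while 4 had an unadjusted p under 0.05 and SAM gave 0 at 0.10. The shares over all genes were 0.597% at 0.10, 2.72% at 0.20 and 12.7% at an unadjusted p under 0.05. The groups did not overlap at 5 of the 12 genes, beside 18.8% of all genes. The study lists Ccnd2 and Sfrp1 as up-regulated at an FDR under 0.20 on these same arrays, which is not independent evidence. Values of Ccnd1, Ccnd2 and Sfrp1 were known before the list was drawn up. Ccnd2 read 10.39, 10.41 and 10.61 on the Igf1-/- arrays, against 9.91, 10.06 and 10.17 on the Igf1+/+ arrays (log2 fold change 0.42, SE 0.10, adjusted p = 0.138). All 7 of its probe sets had a higher mean in the Igf1-/- lungs, with log2 fold changes from 0.10 to 0.42, and 2 of them passed 0.20. Its adjusted p stayed under 0.20 without the third Igf1+/+ array (0.0733) and reached 0.251 to 0.394 without any 1 of the other 5.

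Sfrp1, a secreted Wnt inhibitor, had a higher mean at all 4 of its probe sets, with log2 fold changes from 0.26 to 0.64 and no overlap at any of them. One of these (1448395_at), with 6.54, 6.73 and 6.81 against 6.16, 6.15 and 6.27, passed 0.10 (log2 fold change 0.50, SE 0.09, adjusted p = 0.0804), whereas the brightest had 0.27 (adjusted p = 0.282). Snai1, a transcription factor of mesenchyme, had 8.05, 8.10 and 8.17 against 7.66, 7.46 and 8.01 (log2 fold change 0.40, SE 0.13, adjusted p = 0.270). Foxf1 and Foxf2, forkhead genes of lung mesenchyme that depend on SHH, had log2 fold changes of -0.13 (SE 0.15, adjusted p = 0.737) and -0.17 (SE 0.07, adjusted p = 0.383). Bmp4, a growth factor of distal lung, had -0.11 (SE 0.09, adjusted p = 0.628).

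**Figure D3:**
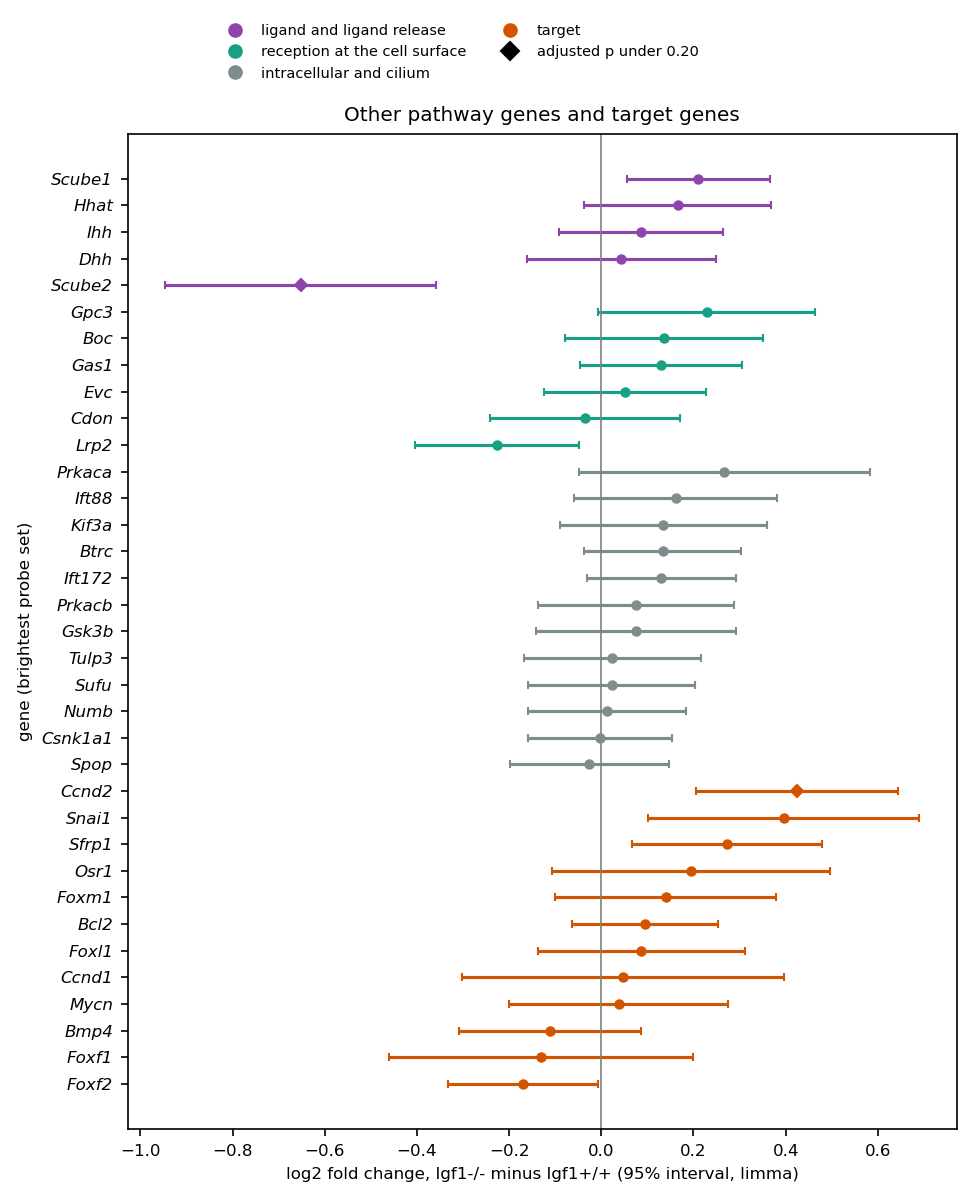
Log2 fold change (x axis, Igf1-/- minus Igf1+/+) with its 95% interval in limma at the brightest probe set of 23 further pathway genes and 12 target genes (y axis), coloured by role, n = 3 per genotype; diamonds mark an adjusted p under 0.20. Scube2 at -0.65 and Ccnd2 at 0.42 are the genes so marked.

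Of 6 markers of lung identity, Sftpa1, Sftpb, Sftpc, Scgb1a1 and Ager were bright on every array, whereas Nkx2-1, a transcription factor of lung epithelium, was of middling brightness and read from 6.32 to 7.25. Their mean ran from 11.6 to 11.8 in both genotypes, with 0 past 0.20 in limma and 3 at an unadjusted p under 0.05, of which 2 (Sftpa1 and Sftpb) were higher and 1 (Ager) lower in the Igf1-/- lungs. Of 10 markers of epithelium, the tissue that makes SHH, 1 (Krt18) passed 0.20 and was lower, 3 had an unadjusted p under 0.05, namely Krt18 and, with higher values, Epcam and Foxa1, and the mean level ran from 10.02 to 10.08 in the Igf1-/- lungs and from 9.97 to 10.03 in the Igf1+/+ lungs. Of 11 markers of lung mesenchyme and 9 of smooth muscle, the cells that receive the signal, 0 passed 0.20 in limma, 1 in each list had an unadjusted p under 0.05, and the median log2 fold change was -0.07 in both. These were Pdgfra in mesenchyme (log2 fold change -0.28) and Myh11 in smooth muscle (-0.24), both lower in the Igf1-/- lungs. The mesenchymal mean ran from 10.01 to 10.17 against 10.09 to 10.23 and the smooth muscle mean from 8.20 to 8.45 against 8.29 to 8.41. Of 12 cartilage markers, which tracheal tissue would bring, 1 fell (Hapln1, log2 fold change -0.39, adjusted p = 0.0910), 1 was higher at 0.20 (Col9a2), and the mean ran from 5.10 to 5.23 against 5.09 to 5.15. The 9 cell cycle genes ran from 8.82 to 9.24 against 8.54 to 9.16, with 0 past 0.20 in limma and 0 at an unadjusted p under 0.05.

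Some features of these arrays moved with the genotype or with 1 array, and their part in the Gli1 and Scube2 results was not tested. All 8 immediate-early genes, which respond within minutes to growth factors and to handling, were lower in the Igf1-/- lungs, 7 of them at 0.10, and their mean ran from 7.54 to 7.60 against 8.99 to 9.90. For such genes the study proposes normal breathing of the wild type embryos after delivery as a possible source. It also proposes a dependence on IGF1 signalling, and neither was tested here. Of 3 erythroid markers, 2 fell. Heart muscle genes were high in the third Igf1-/- array, with a mean of 10.2 over 5 genes against 8.41 to 8.63 in the other 5 arrays. Without that array Gli1 differed by 0.56 (adjusted p = 0.425) and Scube2 by -0.55 (adjusted p = 0.305). Over all mouse probe sets, those past 0.20 in limma then went from 588 to 88. Leaving out any other array except the third Igf1+/+ array left 107 to 204, so the higher adjusted p values were not particular to these genes. Markers of thymus ran from 4.98 to 5.05 against 4.85 to 4.98 (5 genes) and those of oesophageal epithelium from 4.86 to 4.91 against 4.65 to 4.83 (5 genes), with 0 of either past 0.20 in limma and 1 of each at an unadjusted p under 0.05. Igf1, the inactivated gene, was lower at each of its 3 probe sets without passing 0.10, with a log2 difference of -0.51 (SE 0.17, adjusted p = 0.267) at the brightest. The place of those probe sets relative to the deletion is not known here, and their levels bear little on the labels.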

How the data were processed

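Mouse lung RNA of embryonic day 18.5 was hybridized to 6 Affymetrix expression arrays. The authors deposited log2 values, obtained by RMA over 12 arrays, 6 of lung and 6 of cochlea. The cochlear arrays were not used here, and RMA was not repeated. Genotype and replicate number were taken from the labels. Of 22690 probe sets, 64 controls were left out, which left 22626. Of these, 20380 have 1 symbol in the annotation, 691 have several and 1555 none. Symbols were updated through the Entrez identifier with the RefSeq table of GRCm38.p6 (20351 found). A linear model with genotype as its only term was fitted with limma 3.58.1 in R 4.3.3 with empirical Bayes moderation, and Benjamini-Hochberg adjustment took in all 22626. The verbs rose and fell are kept for an adjusted p under 0.10, and 0.20 is a wider level, both being levels of the study. No filter on low values was used. A filter at the median mean kept 6 of the 11 member probe sets, of 4 genes, and left out Gli1. Lists were read at the brightest probe set of each gene.

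The members and the lists were chosen with earlier results of these data known. Named were all member probe sets, further genes past 0.20, the 2 largest other differences of each role, and the 5 patterns nearest to Gli1. Boc, Gas1, Cdon, Evc, Ihh, Dhh, Prkacb, Sufu, Foxf1, Foxf2, Bmp4 and single markers were named outside this rule, after their values were seen. Alternatives were a replicate block, quantile normalization, median centring, the filter, a variance trend, array weights, SAM over 10 splits, no moderation, controls kept, all probe sets of a gene and leaving out each array. The code was tested on simulated data. The number of arrays limits the precision.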

Additional observations from a re-analysis of the deposited data

How the results depend on the processing

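The log2 fold changes of Gli1, Scube2 and Ccnd2 kept their direction under every alternative run, while their adjusted p ran from 0.0468 to 0.468, from 0.0714 to 0.406 and from 0.0658 to 0.406. With the filter on low values Gli1 was not tested. The counts below moved along with the totals over all mouse probe sets. Those were 126 past 0.10 and 588 past 0.20 in the fit used above, 628 and 2325 with array weights, and 1 and 7 with no moderation. When 1 array was left out, the totals ran from 45 to 710 at 0.10 and from 88 to 2888 at 0.20. Of the member probe sets, the number higher at 0.10 was 1 instead of 0 with array weights and ran from 0 to 1 when 1 array was left out; at 0.20 it was 0 with the filter and with no moderation, 2 with array weights, and 0 to 1 when 1 array was left out. Of the other pathway genes, those higher at 0.10 ran from 0 to 2 and those lower from 0 to 1 when 1 array was left out, with 1 lower under the filter, the variance trend and array weights. At 0.20, array weights gave 3 higher and 2 lower, SAM 1 higher and no moderation 0 lower, and leaving out 1 array gave 0 to 3 higher and 0 to 2 lower. Of the target genes, those higher at 0.10 were 2 with array weights, 1 over all probe sets of a gene and 0 to 2 when 1 array was left out. At 0.20 they were 3, 2 and 0 to 3, and 0 with no moderation. Leaving out the third Igf1+/+ array gave the highest of these counts in the pathway and target genes. Array weights equalled them, except for pathway genes higher at 0.10 (0 against 2). Without the third Igf1+/+ array, the probe sets past 0.20 went from 588 to 2888.

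Leaving out 1 array turned the direction of small differences, whose log2 fold change then ran from -0.28 to 0.16 for Shh, from -0.21 to 0.0827 and -0.17 to 0.0755 for Ptch1, from -0.00764 to 0.0862 for Smo at 1427049_s_at, from -0.0500 to 0.14 for Gli2 at 1446086_s_at, from -0.0383 to 0.12 for Gli3 and from -0.10 to 0.12 for Hhip at 1438083_at. Gli3 also turned, to -0.0126, with quantile normalization. The causes were not tested. Same-numbered arrays of both genotypes did not deviate together (correlations of -0.04, -0.23 and -0.14), so the numbers were not used as pairs. With the replicate block, Gli1 had an adjusted p = 0.112, Scube2 one of 0.105 and Ccnd2 one of 0.125, no count of these gene groups changed, and the probe sets past 0.20 went from 588 to 409.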
